A study of Mus musculus with 8 samples.

Results

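Apolipoprotein genes, which encode the protein parts of plasma lipoproteins, were followed in mouse liver and in liver tumours. They were Apoa1, Apoa2, Apoa4, Apoa5, Apob, Apoc1, Apoc3, Apoe, Apof and Apom, taken by name from 19937 genes measured, and all 10 had exactly 1 probe set with a single gene symbol. RNA came from 4 control livers and 4 c-MYC liver tumours, with 1 array per sample. The tumours arose in mice in which human c-MYC was expressed in the liver from the CEBPB-LAP promoter, switched by doxycycline, and they were collected at the humane endpoint. The controls were normal livers of matched mice. The labels carry the same transgene text for all 8 samples. They do not say which alleles or doxycycline schedule the control mice had, nor the strain, age or sex of any mouse. Nothing in them says that the samples of a group came from separate mice. The p-values therefore reflect the spread among these 8 samples, which may be technical.

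Apolipoproteins coat a core of triglyceride and cholesteryl ester and make lipids soluble in blood. The liver makes most of them. Apob forms the backbone of very low density lipoprotein (VLDL), Apoa1 and Apoa2 form that of high density lipoprotein (HDL), and the small exchangeable members move between particles and control lipases, transfer proteins and receptors. Several of the genes lie side by side. In the order of RefSeq's mouse gene table, Apoa1, Apoc3, Apoa4 and Apoa5 follow each other with no gene between them, as do Apoc2, Apoc4, Apoc1 and Apoe elsewhere, and Apof is next to Apon.

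The arrays gave log2 values, so a difference of 1 is a 2-fold change. Array medians lay between 6.33 and 6.44, and the highest value on any array was 13.56. Mouse Myc had a mean of 6.82 ± 0.66 over the control livers and 7.04 ± 0.22 over the tumours (SD, n = 4 each; limma adjusted p = 0.635). The transgene is human, and whether the mouse probe set reads it was not tested. The labelled tissue carried hepatocyte transcripts in both groups. Alb, the albumin gene, lay between 12.94 and 13.03 in controls and between 12.21 and 12.77 in tumours. For Ttr, transthyretin, the means were 13.04 ± 0.04 and 12.71 ± 0.08.

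Promoter sequence is shown for 4 members that behaved differently in the tumours. Apoa5 and Apoa1 lie in the same cluster and fell by very different amounts, Apob fell 2.04-fold, and Apom was not called lower. Each line gives the 250 bases before the transcription start, 5′ to 3′, from RefSeq's table on mouse build GRCm38.p6. Capitals mark letters that match any of 6 motifs searched on both strands.
Apoa5, chr9:46268358-46268607, + strand: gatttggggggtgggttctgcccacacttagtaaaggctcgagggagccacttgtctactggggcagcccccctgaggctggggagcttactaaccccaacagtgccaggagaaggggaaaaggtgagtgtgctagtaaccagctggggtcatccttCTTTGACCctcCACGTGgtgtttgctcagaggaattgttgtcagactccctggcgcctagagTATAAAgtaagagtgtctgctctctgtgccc
Apoa1, chr9:46228380-46228629, + strand: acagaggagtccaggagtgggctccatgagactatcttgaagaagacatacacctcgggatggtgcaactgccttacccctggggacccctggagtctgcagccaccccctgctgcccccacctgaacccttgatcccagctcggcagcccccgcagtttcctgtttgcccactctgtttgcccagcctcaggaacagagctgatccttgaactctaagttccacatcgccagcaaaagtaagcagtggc
Apob, chr12:7977427-7977676, + strand: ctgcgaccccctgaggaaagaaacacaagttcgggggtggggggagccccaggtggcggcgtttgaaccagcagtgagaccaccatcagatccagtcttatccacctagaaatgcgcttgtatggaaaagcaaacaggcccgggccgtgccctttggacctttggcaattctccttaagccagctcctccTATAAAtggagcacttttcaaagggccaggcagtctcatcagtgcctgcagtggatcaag
Apom, chr17:35131802-35132051, - strand: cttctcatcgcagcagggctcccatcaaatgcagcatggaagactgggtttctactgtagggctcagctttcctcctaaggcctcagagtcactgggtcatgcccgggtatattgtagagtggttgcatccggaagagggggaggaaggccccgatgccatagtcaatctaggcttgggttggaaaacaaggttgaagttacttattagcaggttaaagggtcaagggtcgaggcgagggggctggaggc
The motifs were the E-box CACGTG, which MYC with MAX and also USF factors are known to bind, the TATA box TATAAA, the core GGTCAAAG of a nuclear receptor direct repeat (DR1), the HNF4 core CAAAGTCC, the FOXA core TGTTTAC and the HNF1 half-site GTTAAT. The E-box reads the same on both strands, and the DR1 and HNF4 cores can overlap in the letters CAAAG. In Apoa5 the window held CTTTGACC, the DR1 core on the other strand, starting 93 bases before the start site, the E-box at 82 bases and the TATA box at 31 bases. Apob held the TATA box at 60 bases, and the windows of Apoa1 and Apom held none of these letters. Over 32851 windows of the table, 0.834% held the DR1 core, 6.02% the E-box and 12.4% the TATA box. The HNF4 core was in 1.2%, the FOXA core in 3.17% and the HNF1 half-site in 6.43%. The table had windows for 7 of the 10 members, and none for Apoc1, Apoc3 or Apof. Apoa5 has a second listed start nearby whose window holds the same 3 matches. Of the other members, Apoa4 held none, Apoa2 held a TATA box and a FOXA core in 1 of its 2 windows, and in 2 of the 3 windows of Apoe there were TATA box letters or an HNF1 half-site. Only these exact letters were searched, so sites spelled with other letters were not seen, in Apoa1 and Apom as in the rest. A match is a description of letters, and binding was not measured.

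Apolipoprotein transcripts were lower in the tumours almost throughout the group. By limma with Benjamini-Hochberg adjustment over all genes, 9 of the 10 members were lower at an adjusted p under 0.05, by 1.43-fold to 13.7-fold. Over all genes tested, 28.9% were called in either direction, 12.7% lower and 16.2% higher. Apom was the member that did not pass. Of the 9, 7 fell at least 2-fold, as did 4.68% of all genes. Apob and Apoc1 were only just past that cut, and without tumour 4 they changed by -0.98 and -0.96. Apoc1 also fell short of it with array weights (-0.97) and without tumour 1 (-0.99). Of the 10, none was called higher by at least 2-fold, against 5.54% of all genes. For 8 members every tumour lay below every control, as was the case for 13.9% of all genes. The median log2 change of the 10 was -1.10, against -0.04 for all genes. No member was called higher, and none had an unadjusted p under 0.05 in that direction. Called members were 7 without control liver 4 or without tumour 4. In bulk tissue, fewer hepatocytes and less RNA per hepatocyte cannot be told apart.

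**Figure D1:**
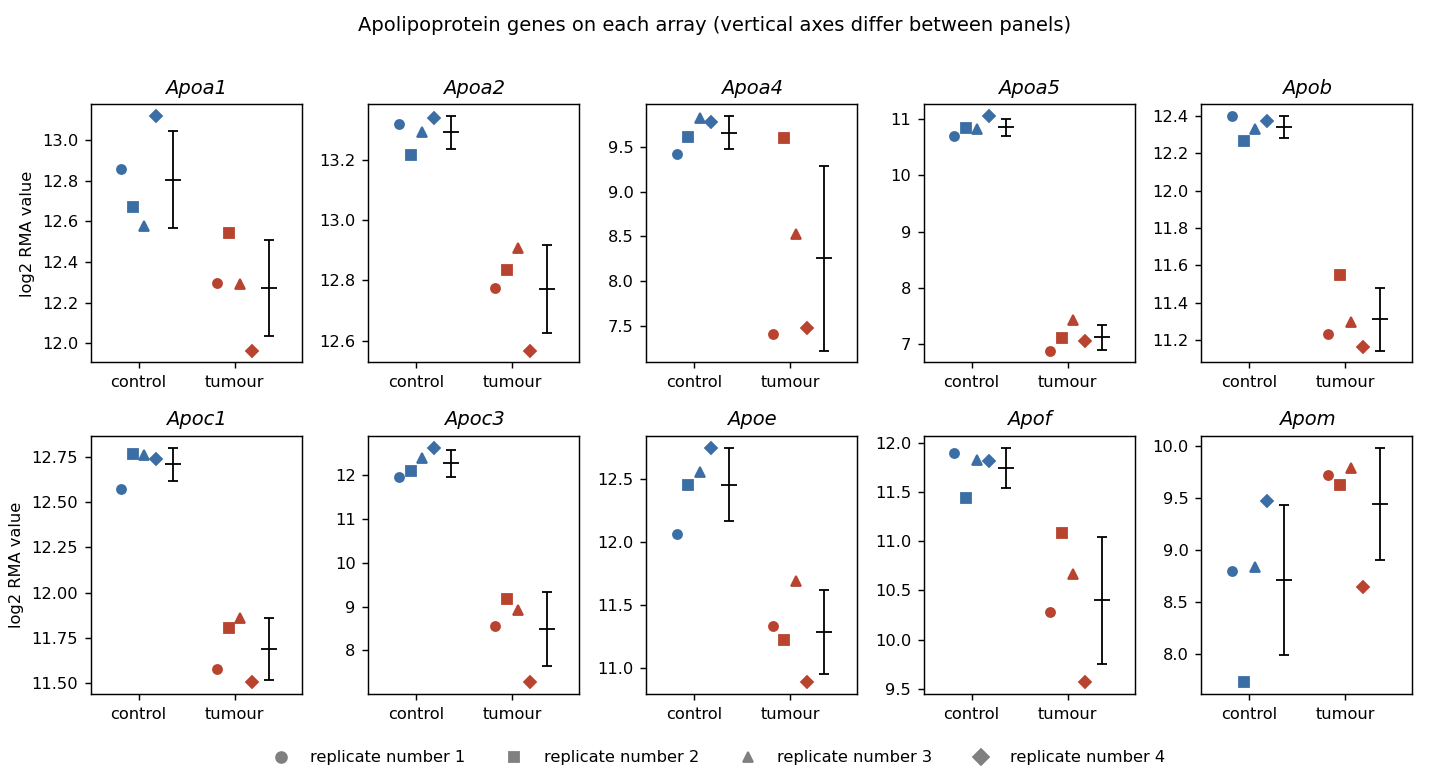
Log2 RMA values of the 10 genes by array, with the 4 controls in blue and tumours in red; symbols give the replicate number in the labels and bars the mean ± SD of 4 arrays, and the vertical axes differ between panels. For 8 genes every tumour lies below every control, while Apoa4 and Apom overlap.

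The structural proteins of HDL fell little. Apoa1, which activates the cholesterol-esterifying enzyme LCAT, read 12.86, 12.67, 12.58 and 13.12 in control livers 1 to 4 and 12.29, 12.54, 12.29 and 11.96 in tumours 1 to 4. The groups did not overlap, but control liver 3 and tumour 2 were only slightly apart. The log2 change was -0.53 (SE 0.15, a 1.45-fold fall, limma adjusted p = 0.0223). The call was lost without control liver 1 (adjusted p = 0.0516), control liver 4 (0.0563) or tumour 4 (0.0515), while leaving out any other array kept it (0.0143 to 0.0497).

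Apoa2, the second most abundant HDL protein, read 13.32, 13.22, 13.29 and 13.34 in controls and 12.78, 12.83, 12.91 and 12.57 in tumours. The control livers lay within a narrow band and every tumour was below it. The change was -0.52 (SE 0.10, adjusted p = 0.0024). These readings were near the top of the arrays' range, where 6 of the 10 members had control means above 12. How well the arrays resolve differences at that brightness was not tested.

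Apom, a lipocalin on HDL that carries sphingosine-1-phosphate, went the other way without passing the test. Its values were 8.80, 7.73, 8.84 and 9.47 in controls and 9.72, 9.63, 9.79 and 8.65 in tumours. Tumours 1 to 3 were above all controls, and tumour 4 was below 3 of the 4. The log2 change of 0.74 had a 95% interval from -0.05 to 1.52 (adjusted p = 0.159). With array weights, which gave tumour 4 the lowest weight of the 8 arrays (0.43), Apom passed (change 0.91, adjusted p = 0.0383). It did not pass with any array left out (0.0523 to 0.377).

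Apof, whose product is known as lipid transfer inhibitor protein, read 11.89, 11.44, 11.83 and 11.82 in controls and 10.28, 11.08, 10.66 and 9.57 in tumours. The SD was 0.65 among tumours and 0.21 among controls, and tumour 4 was the lowest. The change was -1.35 (SE 0.27, a 2.54-fold fall, adjusted p = 0.0034).

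Apob and the remnant ligand Apoe fell by about the same amount. Apob, of which each VLDL particle carries a single molecule, read 12.40, 12.26, 12.33 and 12.37 in controls and 11.23, 11.55, 11.30 and 11.17 in tumours. The gap between the groups was several times their SDs (0.06 and 0.17). The change was -1.03 (SE 0.10, a 2.04-fold fall, adjusted p = 3.3e-05).

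Apoe, which binds the LDL receptor family and is made by macrophages as well as hepatocytes, read 12.06, 12.45, 12.55 and 12.75 in controls. Its tumour values were 11.34, 11.22, 11.69 and 10.89. All tumours were lower, with tumour 3 the nearest to the controls. The change was -1.17 (SE 0.19, a 2.25-fold fall, adjusted p = 7.4e-04). Of 15 macrophage and Kupffer cell markers, 5 were higher and 3 lower in the same arrays, against 16.2% and 12.7% of all genes. The mean level of these markers per array was 7.13 to 7.79 in controls and 7.34 to 7.80 in tumours. Lyz2, the macrophage lysozyme, rose by 2.61 (SE 0.36), while Vsig4, a Kupffer cell receptor, changed by -2.38 (SE 0.50). Only 3 markers were higher without control liver 2, control liver 4 or tumour 3. The part of macrophage RNA in the Apoe values was not tested.

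The small C apolipoproteins did not fall alike. Apoc1, which restrains lipoprotein uptake and lipases, read 12.57, 12.77, 12.77 and 12.74 in controls and 11.58, 11.80, 11.86 and 11.50 in tumours. The change was -1.03 (SE 0.11, a 2.04-fold fall, adjusted p = 4.7e-05), the same size as in Apob.

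Apoc3, an inhibitor of lipoprotein lipase and of remnant clearance, read 11.95, 12.09, 12.40 and 12.62 in controls and 8.57, 9.17, 8.93 and 7.28 in tumours. Every tumour was far below every control, and tumour 4 was lower than the other tumours by more than 1 log2 unit. The change was -3.78 (SE 0.35, a 13.7-fold fall, adjusted p = 1.9e-05), and it was -3.38 without tumour 4.

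Apoa5, which is rare in plasma and promotes triglyceride hydrolysis, the opposite role to Apoc3, fell as much. It read 10.69, 10.85, 10.82 and 11.05 in controls and 6.89, 7.12, 7.43 and 7.06 in tumours. Both groups were tight, with SDs of 0.15 and 0.22. The change was -3.73 (SE 0.13, a 13.2-fold fall, adjusted p = 2.6e-08).

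Apoa4, an exchangeable protein of chylomicrons and HDL that mouse liver and intestine both make, varied most among the tumours. It read 9.42, 9.61, 9.83 and 9.78 in controls and 7.41, 9.60, 8.53 and 7.48 in tumours. Tumour 2 lay within the control range, and tumours 1 and 4 were more than 4-fold lower than the control mean. The change was -1.41 (SE 0.41, adjusted p = 0.0255). The call was lost without control liver 2 (0.0561), 3 (0.0551) or 4 (0.0553) and without tumour 1 (0.0713) or 4 (0.0708). Without tumour 2 the change was -1.86 (adjusted p = 5.2e-04). Of 10 intestinal epithelium markers 1 was lower and 1 higher, against 12.7% and 16.2% of all genes. The lower one, Fabp2, a fatty acid binding protein, read 12.52 ± 0.30 in controls and 10.18 ± 0.37 in tumours. It was the only one of the list well above the array medians (6.33 to 6.44) in controls. Which cells its RNA came from was not tested. Cdx1, an intestinal transcription factor and the next highest of that list in controls, read 6.45 ± 0.17 and 6.60 ± 0.03. Krt20, the marker called higher, read 5.26 ± 0.14 and 6.29 ± 0.38, and was named after its values were seen.

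**Figure D2:**
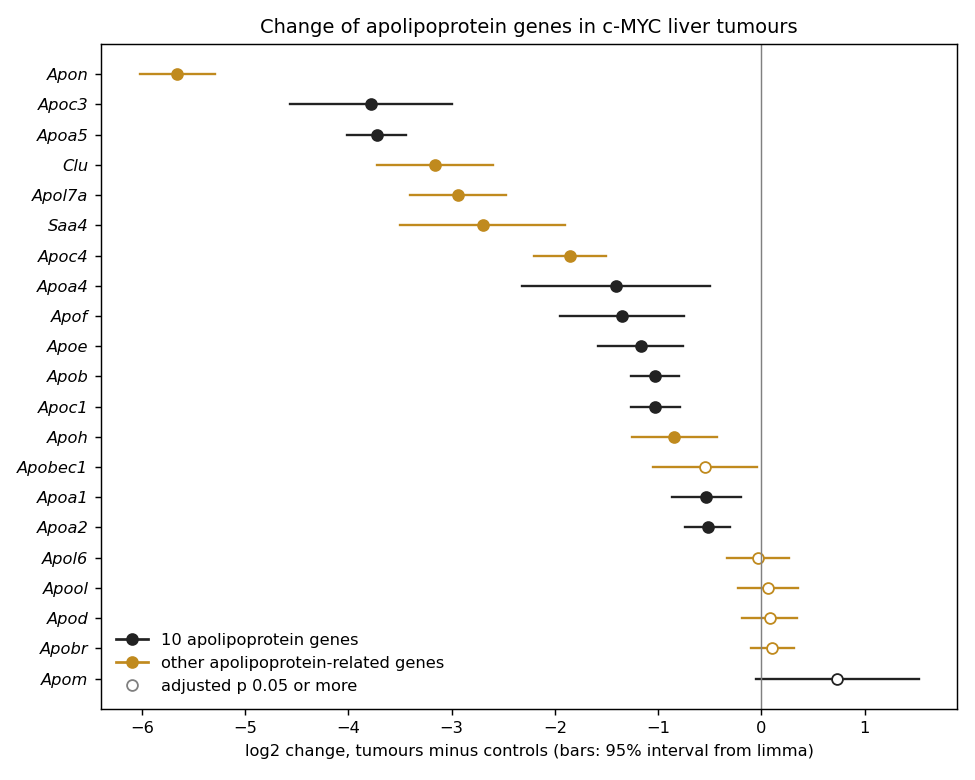
Log2 change (tumours minus controls) with its 95% interval from limma for the 10 genes in black and 11 other apolipoprotein-related genes in ochre; open circles mark an adjusted p of 0.05 or more. Apoc3 (-3.78) and Apoa5 (-3.73) stand below the other 8 of the group, and Apon (-5.66) is lower still.

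The measured falls of genes in a cluster differed in size for some pairs, but no pair passed the adjusted threshold with all arrays. The log2 difference between 2 genes was taken within each array, which removes any shift common to both, and compared between groups by an exact two-sided permutation test. This was done for all 6 pairs among Apoa1, Apoc3, Apoa4 and Apoa5 and for Apoe with Apoc1. With 4 against 4 arrays there are 70 splits and the smallest possible p is 0.0286. 4 pairs reached it, and the adjustment over the 7 pairs gives each a p of 0.05, which is at the threshold and not below it. Without tumour 2, the tumour with high Apoa4, Apoa1 minus Apoa4 reached it too and the 5 pairs passed at an adjusted p of 0.04. No pair passed with any other array left out (lowest adjusted p 0.05). The first 4 pairs kept an exact p of 0.0286, the smallest possible, in each of these fits. With only 4 of the 7 pairs at that value the adjusted p is 0.05, so none could pass unless another pair joined them.

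Relative to its neighbour Apoa1, Apoc3 was 9.49-fold lower in the tumours. Apoa1 minus Apoc3 was 0.90, 0.58, 0.18 and 0.49 in controls and 3.73, 3.38, 3.36 and 4.69 in tumours. The difference between groups of 3.25 compares with SDs of 0.30 and 0.62. For Apoa1 minus Apoa5 it was 3.19 (SDs 0.19 and 0.31), with 1.76 to 2.17 in controls and 4.86 to 5.42 in tumours. The groups were separate in both pairs. Apoa1 lay near the top of the arrays' range, where resolution was not tested.

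Apoa4 stood between them. Apoc3 minus Apoa4 changed by -2.37 (SDs 0.16 and 0.71) and Apoa4 minus Apoa5 by 2.32 (SDs 0.13 and 0.95), again without overlap. Apoa1 minus Apoa4 changed by 0.87 with overlapping groups (exact p = 0.143, adjusted 0.2), and by 1.23 without tumour 2. Apoc3 and Apoa5, the pair with opposite known roles, differed in change by -0.05 (SDs 0.19 and 0.80, exact p = 0.943, adjusted 0.943). That small difference took either sign when arrays were left out, from -0.28 to 0.33. Apoe minus Apoc1 changed by -0.14 (SDs 0.22 and 0.23, exact p = 0.4, adjusted 0.467). A p above the threshold does not show that the members of a pair moved equally.

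**Figure D3:**
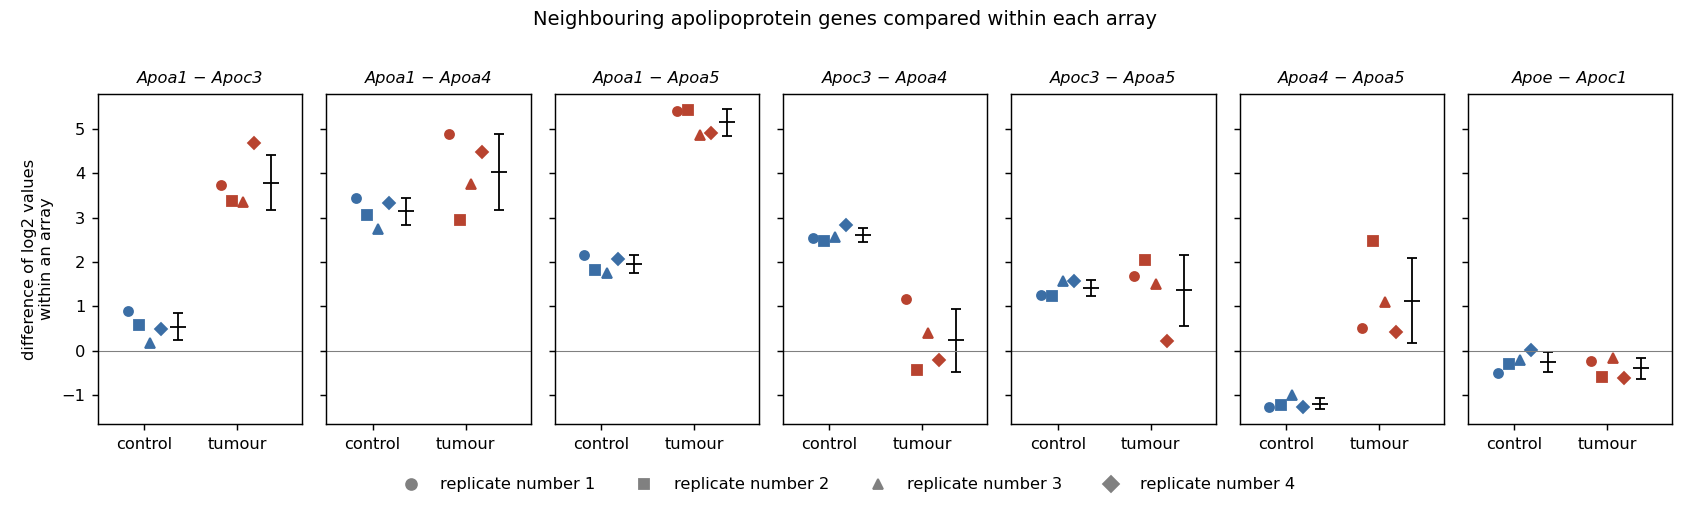
Difference of log2 values between 2 neighbouring genes within each array, for 7 pairs, with controls in blue, tumours in red and bars for the mean ± SD of 4 arrays. Controls and tumours separate for Apoa1 with Apoc3 or Apoa5 and for Apoa4 with Apoc3 or Apoa5, and overlap for Apoa1 with Apoa4, Apoc3 with Apoa5 and Apoe with Apoc1.

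Other genes of the same clusters gave values to set beside these. Apoc4, between Apoc2 and Apoc1, read 9.68, 9.98, 9.77 and 10.04 in controls and 7.70, 8.14, 8.39 and 7.84 in tumours (change -1.85, SE 0.16). Its fall of 3.6-fold compares with 2.04-fold for Apoc1 and 2.25-fold for Apoe. The probe set of Apoc2 carries a second gene symbol and was not used here. Apon, the neighbour of Apof, read 11.84, 11.16, 11.33 and 11.50 in controls and 5.52, 6.10, 5.84 and 5.76 in tumours (change -5.66, SE 0.16), against -1.35 for Apof. These 2 comparisons were chosen after their values were seen and were not tested. The tumour level of Apon was not far above the lower quartile of the arrays (5.23 to 5.44), so the size of its fold is uncertain.

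The members varied together from array to array within a group. Each array's deviation from its own group mean was taken for each gene, and Pearson's r was computed over the 8 arrays for every pair of members. All 45 pairs were positive, with a median r of 0.67 and a range from 0.08 (Apob with Apoe) to 0.90 (Apob with Apof). Over all pairs of the genes tested, 51.6% were positive and the median was 0.02. All genes on an array share its RNA extract and labelling, so this is a description of 8 arrays and carries no p. Among the 11 measured hepatocyte markers the median r was 0.75. Without tumour 4, 40 of the 45 pairs were positive and the median was 0.44, against 50.5% and 0.01 for all genes. The hepatocyte markers then had 48 of 55 positive pairs and a median of 0.53. Over the 4 tumours alone all 45 pairs of members were positive (median 0.76), against 51.8% for all genes. Over the 4 controls alone 34 were positive (median 0.43), against 50.6%.

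Tumour 4 was the lowest of the 4 tumours for 8 members, all except Apoa4 and Apoa5. Over all genes it was the lowest of the tumours for 24.5% and the highest for 42.4%. Averaged over the members, tumour 4 deviated from the tumour mean by -0.49 log2 units, tumour 2 by 0.35 and tumour 3 by 0.24. Among controls, control liver 4 was the highest for 6 members, against 22.6% of all genes, with a mean deviation of 0.22. The tumour SD exceeded the control SD for 8 of the 10 members, as it did for 51.2% of all genes.

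**Figure D4:**
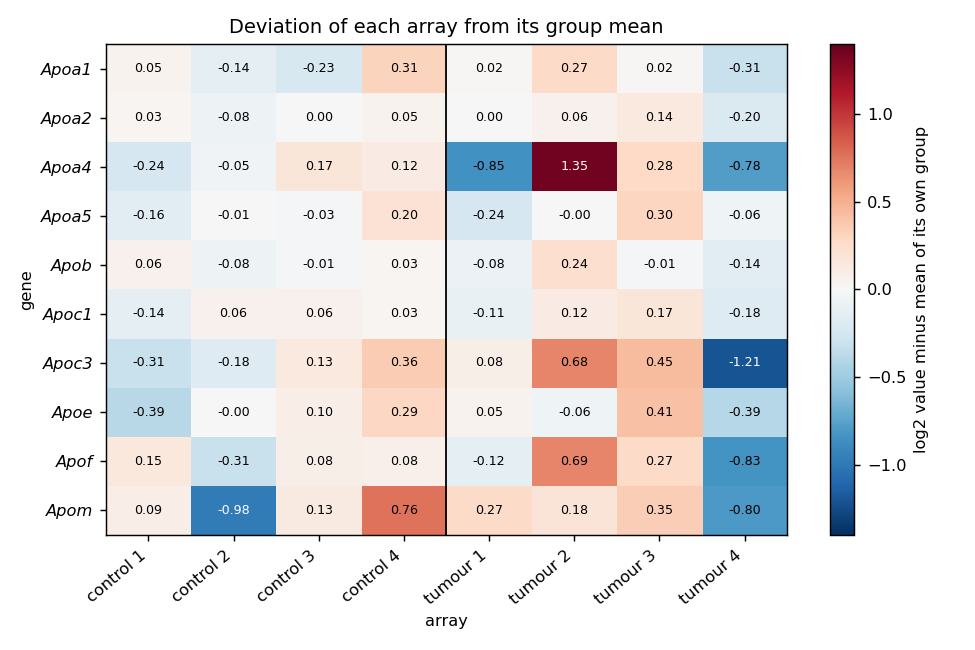
Each array's log2 value minus the mean of its own group, for the 10 genes (rows) and 8 arrays (columns), in red above and blue below the mean. Tumour 4 is negative in every row, and the deepest single deviations are -1.21 for Apoc3 in tumour 4 and -0.98 for Apom in control liver 2.

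Outside the group, the 5 genes whose deviations were most like the members' mean deviation were Nipsnap2, Masp1, Ufd1, Wsb2 and Atg13 (r = 0.99, 0.98, 0.98, 0.97 and 0.97 over 8 arrays, the highest of all other genes). Masp1, a protease of the lectin complement pathway, fell by 2.35 on the log2 scale (SE 0.26) and Nipsnap2 rose by 0.89 (SE 0.19). Ufd1, of protein degradation at the endoplasmic reticulum, changed by -0.21 (SE 0.09, adjusted p = 0.128). For Wsb2 and Atg13 the changes were -0.07 (SE 0.11) and -0.06 (SE 0.22). So 1 of the 5 was lower, 1 higher and 3 not called between the groups. Picking the top of so many genes on 8 arrays favours high r, so these values only describe likeness.

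Genes of lipoprotein metabolism were counted in 6 lists by role. Of 103 listed genes 90 were measured, and 43 were lower and 5 higher in the tumours, with a median log2 change of -0.53. For all genes the shares called were 12.7% and 16.2%, as above.

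Among other apolipoprotein-related genes there were large falls. Of 11 measured, 6 were lower and 5 did not pass, with a median of -0.84. Apon comes first, then Clu, the apolipoprotein J gene, with a change of -3.16 (SE 0.25, an 8.93-fold fall), and Apol7a with -2.94 (SE 0.21). The tumour mean of Apol7a was 5.87, so its fold is as uncertain as that of Apon. Apoh, or beta-2-glycoprotein I, changed by -0.84 (SE 0.19). Apobec1, the enzyme that edits Apob mRNA to give the short apoB-48, changed by -0.54 (SE 0.23, adjusted p = 0.107). It passed with quantile normalization (0.0474) and without tumour 3 (0.0074). Apoh and Apobec1 were named for their roles, after their values were seen.

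Of 15 genes of VLDL assembly and secretion, 7 were lower and 8 did not pass, with a median of -0.42. Mia3, a cargo receptor for large particles at endoplasmic reticulum exit sites, changed by -1.30 (SE 0.13) and Tm6sf2, needed to load VLDL with lipid, by -1.19 (SE 0.19). Cideb, a lipid droplet protein that takes part in VLDL lipidation, changed by -0.99 (SE 0.21). Mttp, the transfer protein that loads lipid on to nascent apoB, averaged 9.79 ± 0.20 in controls and 9.92 ± 0.09 in tumours (change 0.14, SE 0.11, adjusted p = 0.433). Its groups overlapped, whereas those of Apob did not. Mttp was named for its role, after its values were seen.

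Among plasma lipases, transfer proteins and HDL enzymes 7 of 16 were lower and 1 higher, with a median of -0.68. Pon1, the paraoxonase that rides on HDL with Apoa1, fell from 12.14 ± 0.28 to 5.48 ± 0.29 (change -6.66, SE 0.17), and Pon3 changed by -3.76 (SE 0.16). The tumour level of Pon1 was also near the arrays' lower quartile. Saa1, an acute phase protein of HDL, was high in control liver 1, at 12.44. The other controls lay between 6.28 and 8.06, and the tumours between 3.67 and 4.01, below the arrays' lower quartile, so the size of its fold is uncertain. Its change of -4.54 (SE 1.09) was -3.17 without control liver 1, and the call was lost when limma used robust variances with a trend (adjusted p = 0.0528). Lpl, the lipase that Apoa5 and Apoc3 act on, rose 3.68-fold (change 1.88, SE 0.36), from 6.75 to 7.30 in controls to 8.12 to 10.01 in tumours. Without tumour 4 there were 2 higher genes in this list. Lcat, the enzyme that Apoa1 activates, ranged from 9.46 to 11.72 in controls and from 7.73 to 9.79 in tumours (change -1.16, SE 0.53, adjusted p = 0.14). Lcat was named for its role, after its values were seen.

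Receptors had the median nearest to 0 of the 6 lists. Of 13 genes of lipoprotein uptake 2 were lower and 1 higher, with a median of -0.16. The remnant receptor Lrp1 changed by -1.43 (SE 0.22) and Sdc1, a heparan sulphate proteoglycan that captures remnants, by -1.09 (SE 0.10). Lrp2, or megalin, rose by 1.04 (SE 0.13) from a control mean of 5.83, also near the lower quartile. The lower genes were 4 without tumour 1, with quantile normalization or without the dimmest genes, and the higher genes were 2 without control liver 3.

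In cellular lipid efflux and hydrolysis 6 of 11 genes were lower and 2 higher, with a median of -0.50. Ces1d, a triglyceride hydrolase that frees stored lipid for VLDL, changed by -5.08 (SE 0.25) from 11.01 ± 0.58 to 5.92 ± 0.20, a tumour level like that of Apon, so the size of its fold is uncertain. The canalicular sterol transporter partners Abcg5 and Abcg8 changed by -3.02 (SE 0.29) and -1.97 (SE 0.31). Abcg1, which passes cholesterol to HDL, rose by 0.66 (SE 0.15). The higher genes were 1 without control liver 2, tumour 1 or tumour 3.

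Of 24 measured transcriptional regulators known to act on apolipoprotein genes, 15 were lower and 1 higher, with a median of -0.62. The coactivator gene Ppargc1a changed by -1.42 (SE 0.44), with an adjusted p of 0.0334. Leaving out tumour 1, tumour 4 or any of the first 3 control livers raised that p to between 0.0759 and 0.0958. Rora, an activator of Apoa1 and Apoc3, changed by -1.28 (SE 0.20) and the glucose-responsive factor gene Mlxipl by -1.24 (SE 0.25). Srebf2, the activator of sterol synthesis, rose by 0.41 (SE 0.13). It did not pass when control liver 1, 2 or 3 or tumour 1 or 2 was left out (adjusted p between 0.0541 and 0.0901). Hnf4a, a main activator of the Apoa1 cluster, read 9.27 ± 0.35 in controls and 8.74 ± 0.25 in tumours (change -0.54, SE 0.18, adjusted p = 0.0494). The Hnf4a call was lost with each array left out except tumour 1, at adjusted p between 0.0533 and 0.115. It was named for its role, after its values were seen.

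Hepatocyte markers gave a yardstick in the same arrays. Of 11 measured, 10 were lower, where 12.7% of all genes were. With 1 array left out the lower ones were 8 to 10. The mean level of the list per control array was 12.41 to 12.75, near the top of the arrays' range, where resolution was not tested. The median change of the list was -0.52. Apoa1 (-0.53), Apoa2 (-0.52) and Alb (-0.52, SE 0.12) lay near that median, while Apoc3 and Apoa5 were more than 3 log2 units below it. The list itself was uneven. Hpx, the haem-binding hemopexin, changed by -3.05 (SE 0.45, an 8.31-fold fall) and Ahsg, fetuin-A, by -1.11 (SE 0.30), both named after their values were seen. Difference from that list was not tested.

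**Figure D5:**
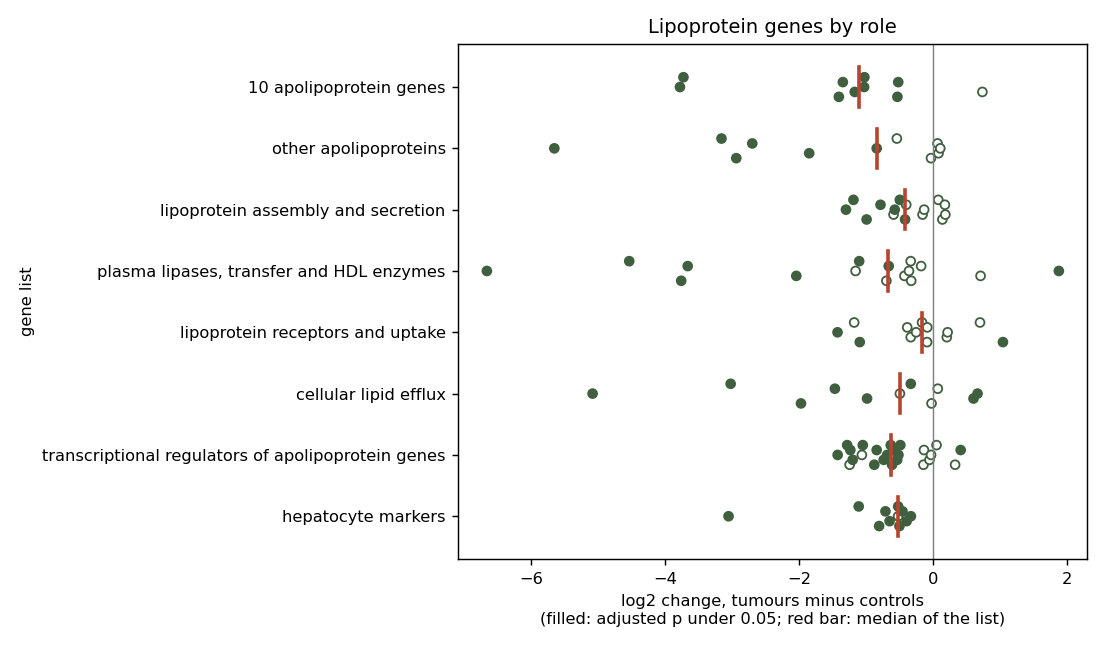
Log2 change (tumours minus controls) of the 10 apolipoprotein genes, 6 lists of lipoprotein genes by role and a list of hepatocyte markers; each point is a gene, filled where the adjusted p was under 0.05, and red bars are medians. The median is -1.10 for the 10 genes, between -0.84 and -0.16 for the other lists by role and -0.52 for hepatocyte markers.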

How the data were processed

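The values analysed are the authors' deposited log2 signals of 34760 probe sets on 8 arrays. The authors made these log2 values with RMA, which corrects background, normalises between arrays and summarises probes, and R 3.0.2, per the submitters' processing notes; settings and genome build are not given in the sources used here. Of these probe sets, 21640 carried exactly 1 gene symbol in the platform's annotation and 1321 carried several and were set aside. Names were updated by gene identifier through RefSeq (21553 matched), and the probe set with the highest mean was kept per gene, leaving 19937 genes.

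Groups were compared with limma 3.58.1 under R 4.3.3 (lmFit then eBayes), fitting group alone, and Benjamini-Hochberg adjustment over all genes at 0.05. Errors are SD of 4 arrays for levels and limma's SE for changes, and changes are tumours minus controls. Arrays give no counts, so their number limits the precision. The named genes were all members, Myc, up to 3 genes per role list with the largest called change plus the largest in the rarer direction, the 2 brightest control genes per marker list, and the 5 genes most like the members' mean deviation; genes named for their roles are marked. The members and lists were chosen with earlier results of these data known. Neighbouring genes were compared with exact permutation in Python 3.11.15. The limma fit was tested on simulated data first. Plots used matplotlib 3.10.9.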

Additional observations from a re-analysis of the deposited data

Results flagged for a closer look

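In each group of 4 arrays, a value was picked out where its gap to the nearest other relative to the group's range was above Dixon's critical value, which chance gives in about 1 of 20 groups. Of 96 groups tested 4 were picked out, 3 of them among the 20 groups of the apolipoprotein members. Apoc1 in control liver 1 was 12.57, where the other controls read 12.74 to 12.77. Apof in control liver 2 was 11.44, where the others read 11.82 to 11.89. Apom in tumour 4 was 8.65, where the other tumours read 9.63 to 9.79. Mia3 in control liver 4 was 9.49, where the others read 9.09 to 9.16.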

How the results depend on the processing

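Quantile normalization, median subtraction, a filter on dim genes, robust variances with a trend and the mean of probe sets kept all 9 called members lower and Apom uncalled. Array weights called 1 member higher, Apom, with a change of 0.91. Fitting the replicate number as a block left 8 members called; Apoa1 kept its change of -0.53 but not its call (adjusted p = 0.0653), and the called genes were 5007. The labels do not say that equal numbers pair samples, and same-numbered samples did not deviate together (r between -0.32 and 0.05). Testing against a 1.5-fold change in limma called 1719 genes, 4 lower members, and 17 lower and 2 higher pathway genes. It no longer called Apoa1 (-0.53), Apoa2 (-0.52), Apoa4 (-1.41), Apoe (-1.17) and Apof (-1.35), a stricter question by construction. Leaving out each array gave 4831 to 5838 called genes, 7 to 9 lower members, 38 to 44 lower and 3 to 6 higher pathway genes, with 3 higher without control liver 2 or tumour 1. Over these fits Apoa1 changed by -0.62 to -0.43, Apoa4 by -1.86 to -1.12 and Apoc3 minus Apoa5 by -0.28 to 0.33. Uncalled changes that took either sign were those of Myc (-0.021 to 0.49), Atg13 (-0.25 to 0.11, and 0.034 with array weights), Wsb2 (-0.13 to 0.014) and Cd3e (-0.0048 to 0.062). With 1 array left out the exact test of neighbouring genes has 35 splits and the same smallest p of 0.0286. Without tumour 2, 5 pairs reached it and passed (adjusted p = 0.04), Apoa1 minus Apoa4 among them, and no pair passed without any other array. The other 4 of these pairs were at the smallest p in every fit, and passed only where Apoa1 minus Apoa4 joined them. Over these fits the change was 2.95 to 3.39 for Apoa1 minus Apoc3, 0.58 to 1.23 for Apoa1 minus Apoa4 and 3.10 to 3.29 for Apoa1 minus Apoa5. It was -2.68 to -2.15 for Apoc3 minus Apoa4 and 1.87 to 2.56 for Apoa4 minus Apoa5. The causes were not tested, apart from the fewer arrays.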

Other observations

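Some markers of other cell types were called in each direction in the same arrays. Of all genes, 12.7% were called lower and 16.2% higher. Whether the lists below differ from those shares was not tested. Of 10 stellate cell and fibroblast markers 3 were lower and 1 higher; the higher call was lost under 9 of 16 alternatives. Dcn, the matrix proteoglycan decorin, changed by -1.46 (SE 0.40), a call lost with array weights (-1.13, limma adjusted p = 0.0963) and without tumour 4 (-1.30, adjusted p = 0.0578). Without any other array it was kept (3.7e-04 to 0.0474). Lrat, the retinol-esterifying enzyme of stellate cells, changed by -1.64 (SE 0.28). Of 10 endothelial markers 5 were lower and 1 higher, and 3 were lower without control liver 2, 3 or 4 or tumour 1 or 2. The higher one, Emcn, changed by 0.99 (SE 0.32) and was not called without control liver 2 or 4 or tumour 2, 3 or 4. The sinusoidal genes Clec4g and Stab2 changed by -2.71 (SE 0.15) and -1.53 (SE 0.17). Clec4g has 2 probe sets, and their mean changed by -1.42.

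Of 5 adipocyte markers 1 was higher and 1 lower. Fabp4, a fatty acid binding protein that macrophages and endothelium also make, rose 6.23-fold (change 2.64, SE 0.27), while Plin1, which coats adipocyte lipid droplets, read 6.93 ± 0.14 and 6.71 ± 0.07 (SD, n = 4 and 4; limma adjusted p = 0.131). The lower call was lost without control liver 2 or tumour 2. Of 7 lymphocyte markers 1 was lower, a call kept without control liver 2 or tumour 3 and lost without any other array, and the T cell genes Cd3e and Cd8a changed by 0.03 (SE 0.09) and 0.06 (SE 0.09). Of 4 bile duct markers 1 was higher and 1 lower. Epcam, the higher one, changed by 0.88 (SE 0.17), and 1 marker was called higher with each array left out. Sox9, the lower one, changed by -0.32 (SE 0.10), a call kept without tumour 4 and lost without any other single array. Epcam and Emcn were named after their values were seen. Krt7, a duct keratin, changed by -0.11 (SE 0.10).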
